A study of Danio rerio with 12 samples.

Results

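The 10 genes described here mark macrophages or leukocytes as a whole, and they were followed by RNA sequencing (RNA-seq) in the ventricular apex of the adult zebrafish heart before and after amputation. They were chosen by name, as *mpeg1.1*, *mpeg1.2*, *csf1ra*, *marco*, *c1qa*, *c1qb*, *c1qc*, *coro1a*, *lcp1*, and *ptprc*, and all 10 were found among the 38049 genes in the count files and passed the filter on low counts, which 19014 genes passed. The study compared 3 genotypes, each uninjured or 7 days post-amputation (dpa) of the apex, with 2 biological replicates a group and 12 libraries in all. Non-transgenic wild-type fish are WT0 when uninjured and WT7 at 7 dpa, and wild-type fish carrying *Tg(hsp70l:nkx2.5-EGFP)*, in which a heat shock promoter drives Nkx2.5 fused to EGFP, are TG0 and TG7. Fish homozygous for the *vu179* mutation in *nkx2.5*, a homeodomain transcription factor of cardiac development, that also carry this transgene (*nkx2.5*-/-) are MT0 and MT7. Embryos of every group, the controls included, were heat-shocked at 21 somites, which in the mutants supplies the embryonic Nkx2.5 that they need to reach adulthood. The mutants are thus adults without functional endogenous *nkx2.5* but with an embryonic pulse of it. They can be set against TG fish, which share the transgene, or WT fish, which do not. The study reports that amputation itself also switches the transgene on for a short time, with expression down again before the apices were sampled. Injured TG and mutant fish may therefore have had a further pulse that injured WT fish lacked. The part of this pulse in the injury effects and in the differences between injured genotypes was not tested. Each library pooled 6 apices of adult fish. The study used fish of both sexes aged 3 to 18 months, and the sex and age of the fish in each pool are not given. The spread between individual fish is not seen, and the p-values measure the spread between pools.

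Macrophages are phagocytes that reside in the zebrafish heart and also enter it from the blood after injury, where they clear dead cells and act on scar formation and on regrowing muscle. Perforin-2 proteins (Mpeg1) are pore-forming proteins of their phagosomes, the receptor Csf1ra carries survival and differentiation signals of colony-stimulating factor 1, and Marco is a scavenger receptor that binds bacteria and debris. C1q, assembled from A, B, and C chains, starts the classical complement cascade and is made largely by macrophages, while Coro1a, Lcp1 (L-plastin), and Ptprc (CD45) belong to the actin cytoskeleton and the surface of leukocytes of all kinds.

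Total counts per library ranged from 14234818 to 24544150, and levels are given as CPM, the counts relative to the effective size of a library after edgeR's TMM factors, which ran from 0.855 to 1.29. A count of 3 corresponded to between 0.121 and 0.223 CPM, below every value of the 10 genes. The libraries carried the heart muscle transcripts that their label implies, with *myl7* between 8306 and 37955 CPM. Counts of *nkx2.5* do not check the genotype, because reads of the endogenous gene, mutated or not, and of the transgene share that name in the count files.

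Most of the macrophage and leukocyte genes were higher 7 days after amputation. In the injury effect averaged over the 3 genotypes, 9 of the 10 rose, between 0.99 and 1.56 on the log2 scale, and *lcp1* did not pass the test. Calls needed a log2 fold change beyond 0.5 in either direction together with an FDR under 0.05 in the quasi-likelihood test of edgeR, Benjamini-Hochberg adjusted over the 19014 genes, and 15.7% of these genes were called higher. The median log2 fold change of the 10 genes was 1.25, against 2e-04 over all genes tested. Each library in turn was left out of the fit, and between 8 and 9 of the 10 genes were then called, *mpeg1.2* being the gene lost.

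**Figure D1:**
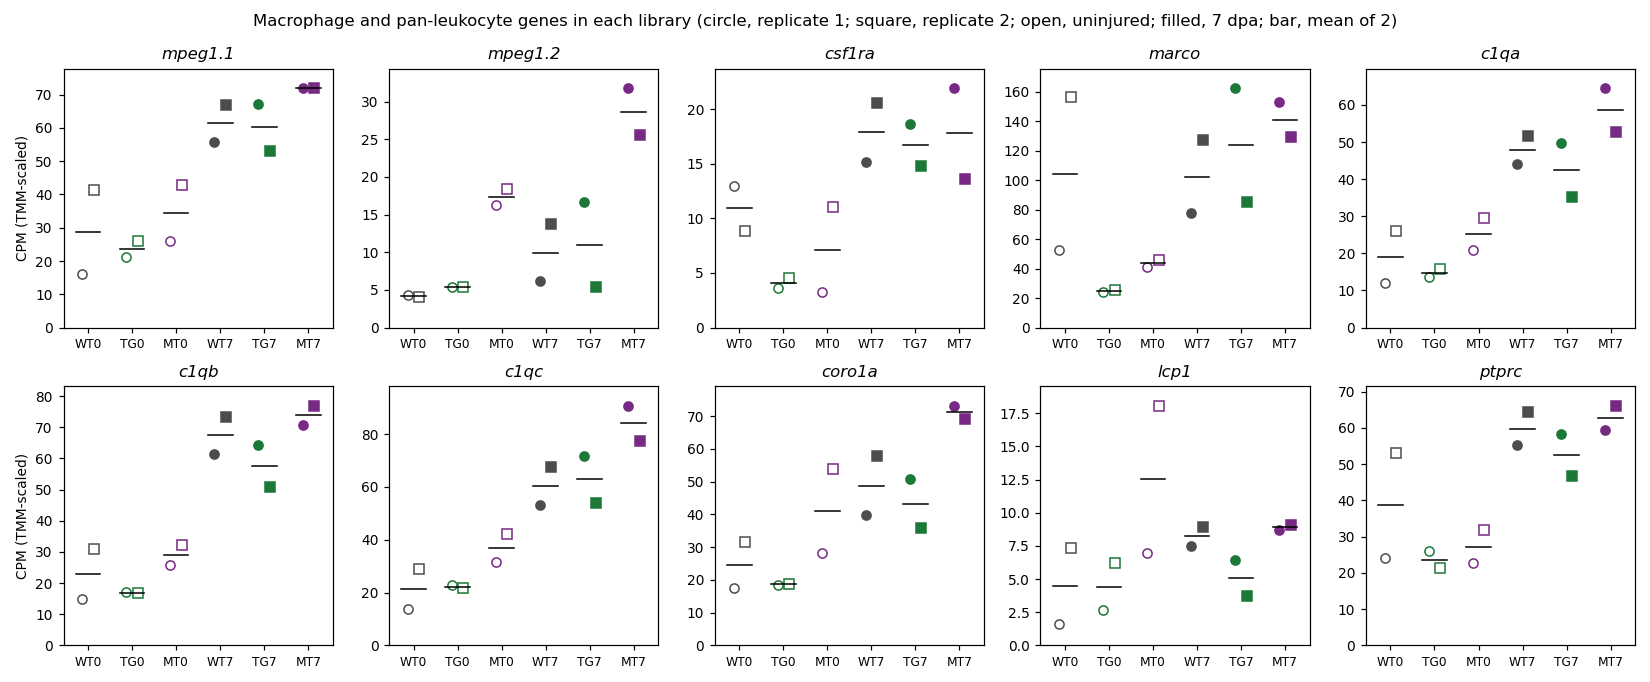
Level of each of the 10 genes in each of the 12 libraries, in CPM on a linear axis from 0, by group on the horizontal axis. Circles are replicate 1, squares replicate 2, open symbols uninjured and filled symbols 7 dpa apices, and bars are means of 2 libraries. Injured libraries lie above all uninjured ones for *mpeg1.1*, *csf1ra*, *c1qa*, *c1qb*, and *c1qc*, and *mpeg1.2* is highest in MT0 among the uninjured and in MT7 among the injured libraries.

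Among the macrophage genes, *mpeg1.1*, the reporter gene of choice for zebrafish macrophages, was present at 16.1 and 41.3 CPM in WT0, 21.3 and 26.1 in TG0, and 25.9 and 42.9 in MT0. At 7 dpa it reached 55.9 and 66.9 CPM in WT7, 67.1 and 53.2 in TG7, and 72.1 and 71.9 in MT7. All 6 injured libraries thus lay above all 6 uninjured ones, a separation seen in 5.01% of all genes tested. The averaged injury effect was 1.17 (standard error 0.21, FDR = 0.0024, edgeR, Benjamini-Hochberg), a 2.25-fold rise. In these bulk libraries, more macrophages in the apex and more RNA of the gene per macrophage cannot be told apart, and the same holds for each gene below.

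The receptor gene *csf1ra* was at 13.007 and 8.86 CPM in WT0, 3.59 and 4.52 in TG0, and 3.22 and 11.1 in MT0. After amputation its level was 15.1 and 20.6 CPM in WT7, 18.7 and 14.8 in TG7, and 22.0 and 13.6 in MT7. Injured and uninjured libraries did not overlap, although the lowest injured library, MT7 replicate 2 at 13.6 CPM, lay just above the highest uninjured one, WT0 replicate 1 at 13.007. The averaged rise was 1.35 (standard error 0.27, FDR = 0.0039 by edgeR with Benjamini-Hochberg adjustment).

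Before injury, levels of *marco* differed widely between libraries. They were 52.7 and 156 CPM in WT0, 24.4 and 25.8 in TG0, and 41.0 and 46.1 in MT0, and 77.5 and 127 in WT7, 163 and 85.4 in TG7, and 153 and 129 in MT7. WT0 replicate 2 stood at the level of the injured libraries, while the other 5 uninjured libraries lay below all 6 injured ones. The averaged effect was 1.32 (standard error 0.26, FDR = 0.0036, edgeR, Benjamini-Hochberg). It was 1.65 without WT0 replicate 2 and 1.13 without WT0 replicate 1.

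Of the *mpeg1* pair, *mpeg1.2* differed most between genotypes. It was found at 4.34 and 4.09 CPM in WT0, 5.36 and 5.37 in TG0, and 16.3 and 18.4 in MT0, then at 6.21 and 13.7 in WT7, 16.6 and 5.35 in TG7, and 31.8 and 25.5 in MT7. TG7 replicate 2 did not exceed the TG0 libraries, and the injured and uninjured libraries overlapped. The averaged effect of 0.99 (standard error 0.27, FDR = 0.017, edgeR, Benjamini-Hochberg) passed the test, but lost the call when TG0 replicate 1, TG0 replicate 2, MT0 replicate 1, or WT7 replicate 2 was left out, with the smallest value, 0.77, in the last case. It was lowest without TG7 replicate 1, at 0.65, and still called. Reads that match both paralogs can be split between *mpeg1.1* and *mpeg1.2* by the counting, so levels of either are less certain than those of the other genes. In RefSeq's GRCz12tu assembly, used for names only, the paralogs are not neighbours, with *mpeg1.1* beside the perforin gene *prf1.5* and *mpeg1.2* between *rgl1* and *colgalt2b*.

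The C1q chains had the 3 lowest FDRs of the 10 genes in the averaged injury effect. *c1qa* measured 11.99 and 26.1 CPM in WT0, 13.5 and 15.7 in TG0, and 20.8 and 29.6 in MT0, and 44.2 and 51.6 in WT7, 49.7 and 35.2 in TG7, and 64.6 and 52.7 in MT7. Levels of *c1qb* were 14.8 and 31.0 CPM in WT0, 17.1 and 16.8 in TG0, and 25.7 and 32.2 in MT0, and 61.6 and 73.4 in WT7, 64.4 and 50.7 in TG7, and 70.7 and 76.9 in MT7. For *c1qc*, the values were 13.8 and 28.9 CPM in WT0, 22.8 and 21.6 in TG0, and 31.6 and 42.1 in MT0, and 53.2 and 67.5 in WT7, 71.9 and 54.1 in TG7, and 90.8 and 77.6 in MT7. In none of these 3 genes did an injured library overlap with an uninjured one. Averaged rises were 1.36 for *c1qa* (standard error 0.19, FDR = 0.00055), 1.56 for *c1qb* (standard error 0.16, FDR = 0.00012), and 1.399 for *c1qc* (standard error 0.17, FDR = 3e-04, edgeR, Benjamini-Hochberg). The *c1qb* rise was 2.95-fold. These genes are consecutive in the GRCz12tu annotation, in the order *c1qb*, *c1qc*, *c1qa*.

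The pan-leukocyte genes divided. *coro1a*, which binds actin at the leukocyte cortex, was at 17.6 and 31.7 CPM in WT0, 18.6 and 18.6 in TG0, and 28.1 and 54.0 in MT0, and at 39.8 and 57.8 in WT7, 50.7 and 35.7 in TG7, and 73.2 and 69.3 in MT7. MT0 replicate 2 overlapped with the injured libraries, and the other 5 uninjured libraries lay below all of them. The averaged rise was 0.998 (standard error 0.20, FDR = 0.0035, edgeR, Benjamini-Hochberg).

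*ptprc*, which encodes the leukocyte surface phosphatase CD45, was at 24.3 and 52.9 CPM in WT0, 25.9 and 21.4 in TG0, and 22.8 and 31.8 in MT0. Its injured levels were 55.2 and 64.4 CPM in WT7, 58.4 and 46.7 in TG7, and 59.4 and 66.1 in MT7. WT0 replicate 2 exceeded TG7 replicate 2, and no other pair of libraries overlapped. The rise averaged 0.995 (standard error 0.18, FDR = 0.0021, edgeR with Benjamini-Hochberg adjustment).

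*lcp1*, the actin-bundling L-plastin, was the exception. It was at 1.63 and 7.37 CPM in WT0, 2.68 and 6.18 in TG0, and 7.001 and 18.1 in MT0, against 7.51 and 8.91 in WT7, 6.43 and 3.76 in TG7, and 8.73 and 9.08 in MT7. MT0 replicate 2, an uninjured library, was the highest of all 12, the lowest was WT0 replicate 1, and the injured and uninjured libraries overlapped. The averaged log2 fold change was 0.19, with a 95% confidence interval from -0.63 to 1.003 that includes the size of the *coro1a* and *ptprc* rises (FDR = 0.72, edgeR, Benjamini-Hochberg).

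Injury was next compared within each genotype, where 2 libraries stand against 2. In WT7 vs WT0, only the 3 C1q chains were called higher, with 13.2% of all genes called higher, although 9 of the 10 genes had both injured libraries above both uninjured ones (34.2% of all genes). In TG7 vs TG0, 7 genes were called, *mpeg1.1*, *csf1ra*, *ptprc*, *marco*, and the C1q chains, against 6.70% of all genes. MT7 vs MT0 gave 5 calls, *ptprc*, *marco*, and the C1q chains, against 5.56% of all genes. Injured libraries lay above both uninjured ones for 8 genes in TG (32.4% of all genes) and 9 in MT (29.4% of all genes). Medians of the 10 log2 fold changes were 1.04 in WT, 1.42 in TG, and 1.19 in MT, with medians over all genes between 1e-04 and 0.0046. The C1q chains were therefore called in each genotype, between 1.19 and 1.77, whereas *mpeg1.2*, *coro1a*, and *lcp1* were called in none of the 3. Calls within a genotype depended on single libraries. Without WT0 replicate 2, 7 genes were called in WT7 vs WT0, and 1 without WT7 replicate 2. In TG7 vs TG0, none was called without TG0 replicate 1, TG0 replicate 2, or TG7 replicate 1, and 4 were called without WT7 replicate 1, WT7 replicate 2, or TG7 replicate 2. In MT7 vs MT0, none was called without MT0 replicate 1 or MT7 replicate 1, 3 without MT7 replicate 2, and 1 when any library of TG0, WT7, or TG7 was left out.

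The 2 WT0 libraries differed from each other. The summed level of the 10 genes was 170 CPM in WT0 replicate 1 and 388 in replicate 2, a ratio of 2.28 that no other group approached (0.680 to 1.47 in the other 5). *marco* made up 37.4% of the sum over the WT0 libraries, against 15.8% to 26.1% in the other groups. The same ratio was 0.68 for *csf1ra* and 0.94 for *mpeg1.2*, which were lower in replicate 2. In the same order, the summed level of further macrophage and monocyte genes was 627 and 873 CPM, that of further pan-leukocyte genes 470 and 658, and that of B cell genes 20.7 and 37.8. Over the WT0 libraries, *lgals2a* made up 29.6% of the macrophage and monocyte sum, *srgn* 40.0% of the pan-leukocyte sum, and *cd79a* 89.2% of the B cell sum. The neutrophil sum was 72.6 and 71.8 CPM, of which *nccrp1* made up 50.8% over the WT0 libraries, while the neutrophil list gene *cebpa* was at 11.7 and 20.2. WT0 replicate 1 was the lowest uninjured library for *mpeg1.1*, *lcp1*, *coro1a*, and the C1q chains. WT0 replicate 2 was the highest uninjured library for *marco* and *ptprc*. Which of these libraries was unusual, and what set them apart, was not tested.

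**Figure D2:**
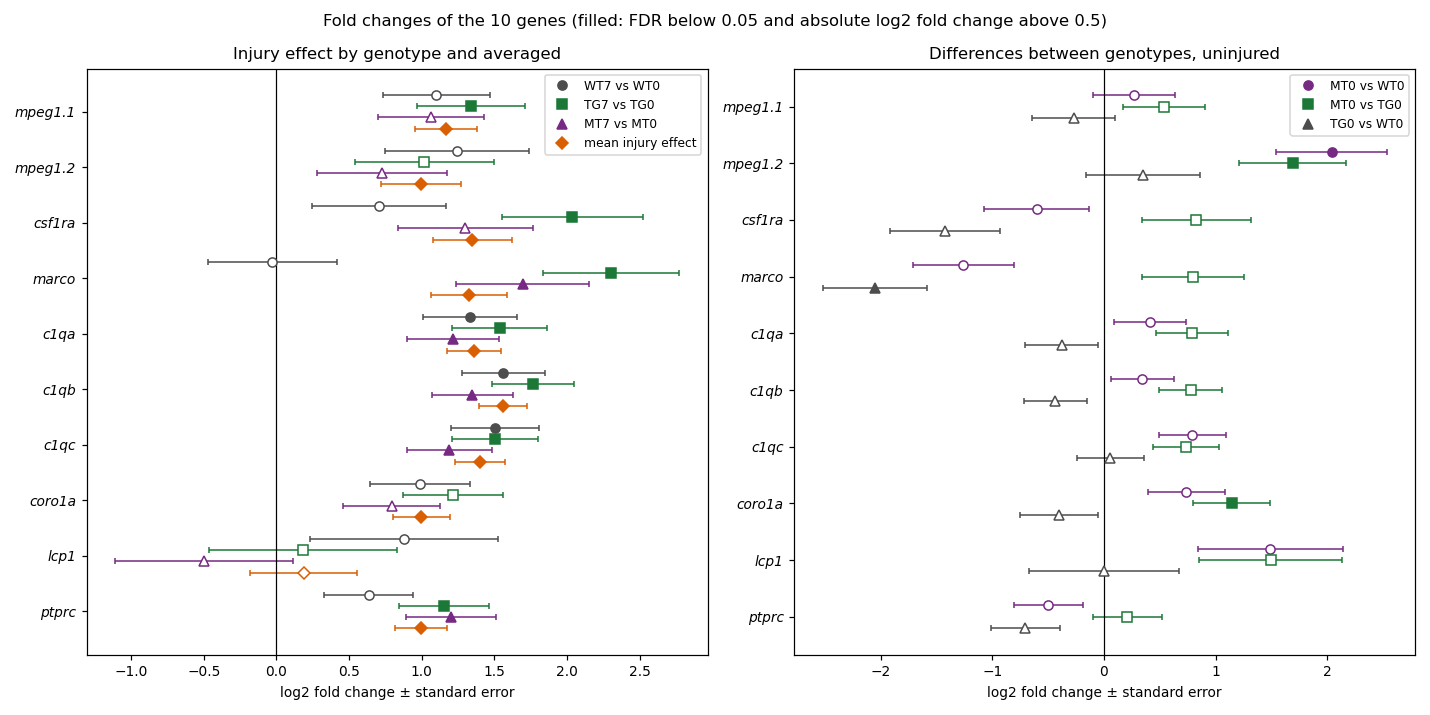
Log2 fold changes of the 10 genes with standard errors, on a linear axis. The left panel gives the injury effect in each genotype and averaged over them, and the right panel the differences between uninjured genotypes; filled symbols passed the thresholds of the test. The C1q chains are filled in every injury comparison, *lcp1* in none, and *marco* runs from -0.03 in WT to 2.30 in TG.

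Whether the response differed between genotypes was tested as an interaction, and no gene of the 10 was called in any of the 3 interactions, in which 1.97% (MT against WT), 1.41% (MT against TG), and 3.64% (TG against WT) of all genes were called. At an unadjusted p under 0.05 the counts were 1, 0, and 1, by edgeR's quasi-likelihood test, and DESeq2 called 0, 0, and 1 at the same thresholds. *marco* accounted for these. Its injury effect was -0.03 in WT, 2.30 in TG, and 1.69 in MT. The TG effect exceeded the WT effect by 2.33 (standard error 0.64, FDR = 0.074), and the MT effect exceeded it by 1.72 (standard error 0.63, FDR = 0.18, edgeR, Benjamini-Hochberg). Both comparisons share the WT libraries, and without WT0 replicate 2 the differences were 1.34 and 0.72. Without WT0 replicate 1, these differences were 2.91 and 2.29. For the C1q chains the interactions lay between -0.42 and 0.20, and their lowest FDR was 0.68 by edgeR with Benjamini-Hochberg adjustment.

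In the uninjured apex, few of the 10 genes were called between mutants and controls, near the share over all genes, and *mpeg1.2* was called against either control. In MT0 vs WT0, *mpeg1.2* was the 1 gene of the 10 called higher (13.6% of all genes). None was called lower (11.6% of all genes), although *marco* was called lower by DESeq2 and with no filter on low counts. The *mpeg1.2* difference was 2.04 on the log2 scale (standard error 0.50, FDR = 0.014, edgeR, Benjamini-Hochberg). MT0 vs TG0 gave 2 calls (11.4% of all genes), *mpeg1.2* by 1.69 (standard error 0.48, FDR = 0.030) and *coro1a* by 1.14 (standard error 0.34, FDR = 0.039, edgeR, Benjamini-Hochberg). As given above, both MT0 libraries held more than 16 CPM of *mpeg1.2* and all 4 control libraries less than 5.4. These comparisons share the MT0 libraries. When each of the 12 libraries was left out in turn, the *mpeg1.2* log2 fold change stayed between 1.97 and 2.14 against WT0 and between 1.61 and 1.78 against TG0. Its call was lost without WT0 replicate 1, WT0 replicate 2, or MT0 replicate 2 in the former (lowest value 1.97), and without any 1 of the TG0 and MT0 libraries in the latter (lowest value 1.61). *coro1a* against TG0 was called in 5 of these 12 fits and was 0.60 without MT0 replicate 2, 1.14 without TG0 replicate 1, 1.15 without TG0 replicate 2, and between 1.15 and 1.16 without any 1 of the WT7 and TG7 libraries, each time short of the FDR threshold. When WT0 replicate 1 or WT0 replicate 2 was left out, 5 of the 10 genes were called in MT0 vs TG0, these and the 3 C1q chains, and without MT0 replicate 1 the calls were *coro1a* and *csf1ra*.

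The other genes were less uniform in the mutants before injury. All 10 had positive log2 fold changes in MT0 vs TG0, with a median of 0.79 against 0.03 over all genes, and 7 had both MT0 libraries above both TG0 libraries (32.0% of all genes). Against WT0 the median was 0.38, and the 95% confidence intervals of *mpeg1.1* (-0.55 to 1.09), *c1qa* (-0.31 to 1.13), and *c1qb* (-0.28 to 0.97) spanned both directions. The estimates of *marco*, *csf1ra*, and *ptprc* were negative, at -1.26, -0.60, and -0.50, and none was called. For *marco* the interval ran from -2.27 to -0.25 (FDR = 0.063, edgeR, Benjamini-Hochberg), and both MT0 libraries lay below both WT0 libraries. *lcp1* was 1.49 higher in either comparison, with an FDR of 0.11 against WT0 and 0.12 against TG0 by edgeR with Benjamini-Hochberg adjustment. The comparison with WT0 depended on which of its libraries was kept. Without WT0 replicate 2, the log2 fold change was 1.11 for *mpeg1.1*, 1.09 for *c1qa*, 0.99 for *c1qb*, and 1.43 for *c1qc*. Without WT0 replicate 1, these values were -0.25, -0.04, -0.09, and 0.36. *ptprc* was 0.19 without replicate 2 and -0.94 without replicate 1, and *marco* was -0.26 and -1.83. Without MT0 replicate 1, *coro1a* was called beside *mpeg1.2*, and without MT0 replicate 2 *csf1ra* alone was called, as lower. Neutrophil genes differed between the MT0 libraries. Their summed level was 80.2 CPM in MT0 replicate 1 and 177 in replicate 2, against 68.7 to 118 in the 4 control libraries, and of 13 genes 6 were called higher and 1 lower in MT0 vs TG0 and 2 higher and none lower in MT0 vs WT0, where 13.6% of all genes were called higher. The neutrophil markers *lyz*, at 36.6 CPM, *npsn*, at 30.9, and *lect2l*, at 12.9, were highest in MT0 replicate 2. The list genes *cpa5* and *csf3r* were not. *cpa5* was highest in TG0 replicate 2, at 61.5 CPM of the 118 that the neutrophil list summed to in that library. Whether these *cpa5* reads came from neutrophils was not tested. *csf3r* was highest in WT0 replicate 1, at 2.64. *mpx* and *mmp9* were highest in MT7 replicate 2 over all 12 libraries, but among the 6 uninjured ones in MT0 replicate 2, at 8.02 and 3.63 CPM. MT0 replicate 2 was also the highest uninjured library for 7 of the 10 genes, *mpeg1.1*, *mpeg1.2*, *coro1a*, *lcp1*, and the C1q chains. Genes of non-leukocytes differed as well. Epicardial and fibroblast genes were called higher in 11 of 13 in MT0 vs WT0 and 10 of 13 in MT0 vs TG0, with summed levels of 2743 and 3776 CPM in MT0 against 860 to 1618 in the 4 control libraries. Of 13 cardiomyocyte genes, 5 were called lower in either comparison, and 1 higher in MT0 vs WT0, with sums of 82672 and 61402 CPM in MT0 against 95356 to 110690 in the controls. The part of these cells in the differences of the 10 genes was not tested.

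Between the controls, *marco* was the 1 gene of the 10 called in either direction. TG0 vs WT0 called it lower in TG0, and 1 gene in 10 is near the share over all genes (11.3% called lower). Its log2 fold change was -2.05 (standard error 0.47, FDR = 0.013, edgeR, Benjamini-Hochberg). Without WT0 replicate 2 it was -1.06 and not called, and the call was also lost without TG0 replicate 1 or TG0 replicate 2. Without WT0 replicate 1, 3 genes were called lower, *ptprc* and *c1qb* beside *marco*, and without MT0 replicate 1 or MT0 replicate 2 the calls were *csf1ra* and *marco*. *csf1ra*, at -1.43 (standard error 0.49), had both TG0 libraries below both WT0 libraries but an FDR of 0.059 by edgeR with Benjamini-Hochberg adjustment.

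At 7 dpa no gene of the 10 was called between genotypes. MT7 vs WT7 called 10.2% of all genes, MT7 vs TG7 called 2.78%, and TG7 vs WT7 called 1.14%. Unadjusted p-values of edgeR's quasi-likelihood test fell under 0.05 for 1, 1, and 0 genes, and DESeq2 called 1, 1, and 0. This gene was *mpeg1.2*, which was 1.52 higher in MT7 than in WT7 (standard error 0.46, FDR = 0.063) and 1.398 higher than in TG7 (standard error 0.46, FDR = 0.15, edgeR, Benjamini-Hochberg). Without TG7 replicate 1 or TG7 replicate 2, *mpeg1.2* was called in MT7 vs WT7. Both MT7 libraries, at 31.8 and 25.5 CPM, lay above the 4 injured control libraries, of which TG7 replicate 1 was the highest at 16.6. Of the 10 genes, 6 had both MT7 libraries above both WT7 libraries and 8 above both TG7 libraries, against 29.7% and 24.9% of all genes. Medians of the 10 log2 fold changes were 0.26 in MT7 vs WT7, 0.39 in MT7 vs TG7, and -0.14 in TG7 vs WT7. For *c1qb* the MT7 libraries differed from WT7 by 0.13, with a 95% confidence interval from -0.47 to 0.73, and from TG7 by 0.36 (-0.24 to 0.96), which limits the difference but does not show equal levels. Beside these values, 8 of 13 cardiomyocyte genes were called lower and 1 higher in MT7 vs WT7, with sums of 40799 and 48841 CPM in MT7 against 80341 and 74520 in WT7, and their part was not tested.

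Ratios of counts within a library, which do not depend on library size, were examined as a description without a test, since the pairs were looked at with the levels known. The *mpeg1.2* to *mpeg1.1* ratio lay between 0.355 and 0.630 in the 4 mutant libraries and between 0.0991 and 0.269 in the 8 control libraries, injured and uninjured. Mutant and control libraries thus did not overlap in this ratio, while *mpeg1.1* itself was called in no comparison between genotypes. The ratio of *c1qa* to *c1qc* varied 1.52-fold over the 12 libraries, and that of *c1qb* to *c1qc* 1.55-fold, the narrowest ranges of the 9 ratios computed. Within these ranges, the 4 WT libraries lay highest. Their *c1qa* to *c1qc* ratios were 0.764 to 0.905, against 0.594 to 0.726 in the 8 libraries with the transgene, and their *c1qb* to *c1qc* ratios 1.07 to 1.16, against 0.749 to 0.992. By contrast, *csf1ra* to *mpeg1.1* varied 6.496-fold, from 0.124 in MT0 replicate 1 to 0.807 in WT0 replicate 1, and only between 0.189 and 0.308 after injury. The *marco* to *mpeg1.1* ratio was 3.27 and 3.78 in WT0 and between 0.987 and 2.42 elsewhere, so both WT0 replicates lay above all other libraries in this ratio.

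**Figure D3:**
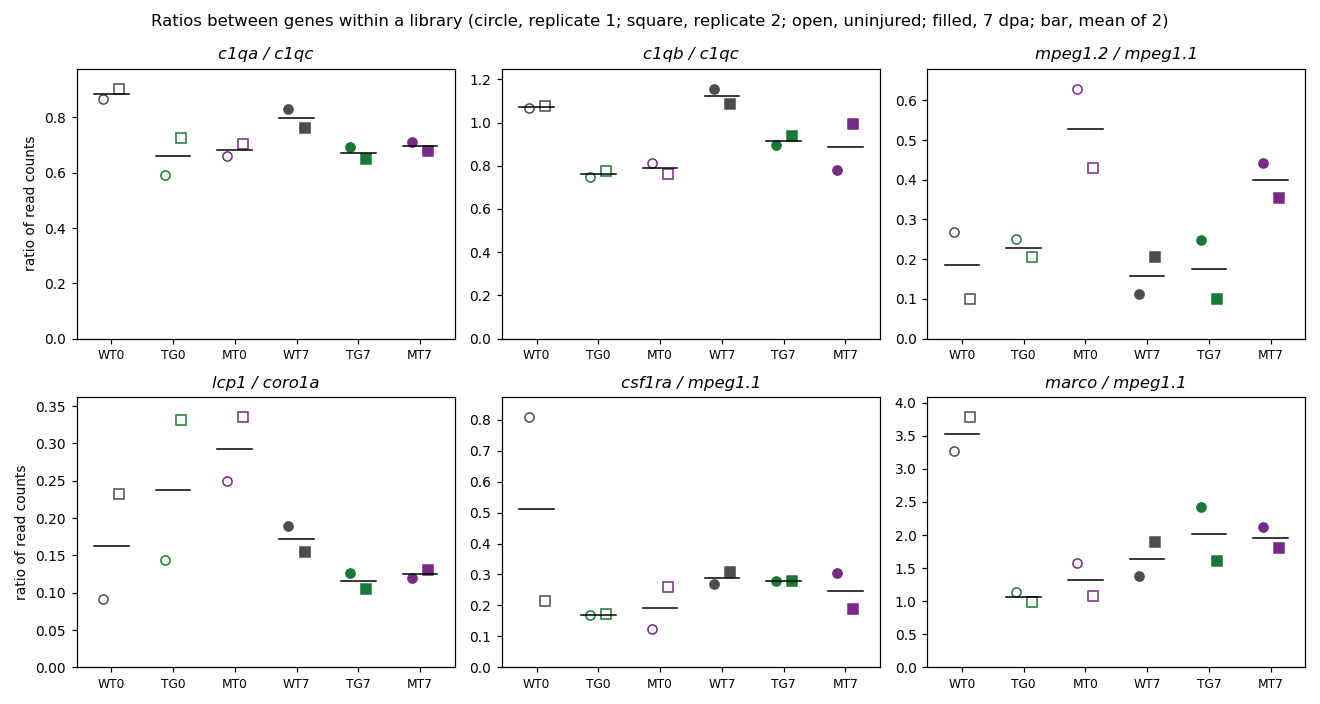
Ratios of read counts between pairs of the 10 genes within each library, on linear axes from 0; symbols as in the plot of levels by library. The *mpeg1.2* to *mpeg1.1* ratio is at or above 0.355 in every mutant library and at or below 0.269 in every control library, and the *c1qb* to *c1qc* ratio is highest in the 4 WT libraries.

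Profiles over the 12 libraries were then compared by Pearson's r of log2 CPM, as a description. The libraries fall into injured and uninjured ones, so any gene that responds to injury gains a high r, and no p is given. Among the 10 genes the highest r joined *c1qa* with *c1qb* (0.986, with 0.983 over the 6 uninjured and 0.847 over the 6 injured libraries) and *mpeg1.1* with *c1qa* (0.983, with 0.956 and 0.908). The lowest joined *csf1ra* with *lcp1* (0.219). *mpeg1.1* and *mpeg1.2* reached 0.596, with 0.390 over the uninjured and 0.980 over the injured libraries.

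Among 13480 other genes whose log2 CPM averaged 1 or more, *mpeg1.1* was most like LOC569720 (0.992) and *rgs18*, a leukocyte regulator of G-protein signaling (0.985), and *coro1a* was most like *cotl1*, which binds F-actin (0.985), and *cyba*, a subunit of the phagocyte NADPH oxidase (0.983). For the C1q chains, lysosomal cathepsin genes were among the nearest, *ctsz* for *c1qa* (0.981) and *ctsa* for *c1qb* (0.991), and *f13a1b*, a coagulation factor XIII gene, was near *c1qc* (0.982). *marco* and *ptprc* shared si:ch211-217k17.11 as the most similar gene (0.952 and 0.973). *mpeg1.2* was nearest to LOC103908889 (0.935), *cd63* (0.932), and *sec61b* (0.927), *csf1ra* to *ptrfb* (0.970) and *plat* (0.948), and *lcp1* to *rpn2* (0.886), which encodes a subunit of the oligosaccharyltransferase of the secretory pathway.

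Other macrophage and leukocyte genes were read from lists of symbols. Of 28 further macrophage and monocyte genes tested, 22 rose in the averaged injury effect, 1 fell (9.18% of all genes were called lower), and 5 did not pass the test, with a median log2 fold change of 1.04. The transcription factors of the myeloid lineage were among them, *spi1b* at 1.47 and *irf8* at 0.98, as were *mafba* at 0.87, the chemokine receptor *cxcr3.2* at 1.396, *havcr1* at 1.55, and *mfap4*, a macrophage marker in zebrafish, at 1.37. *apoeb*, which encodes a lipid carrier, rose by 2.82. The gene that fell was *timd4*, in mammals a receptor of resident macrophages, at -0.64 (standard error 0.19, FDR = 0.023, edgeR, Benjamini-Hochberg). It was at 3.92 to 8.24 CPM in the uninjured libraries and 2.60 to 7.47 in the injured ones, which overlap.

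Of 37 further pan-leukocyte genes, 29 rose, 1 fell, and 7 did not pass the test, with a median of 0.88. Those of lowest FDR were *plek* (1.43), *wasb* (1.29), and *cybb* (1.66), which encode a platelet and leukocyte signaling protein, an activator of actin assembly, and the catalytic subunit of the phagocyte NADPH oxidase. The oxidase subunit genes *cyba* (0.78), *ncf1* (1.397), and *ncf4* (1.60) rose as well. *srgn*, a granule proteoglycan gene, fell by 0.51.

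**Figure D4:**
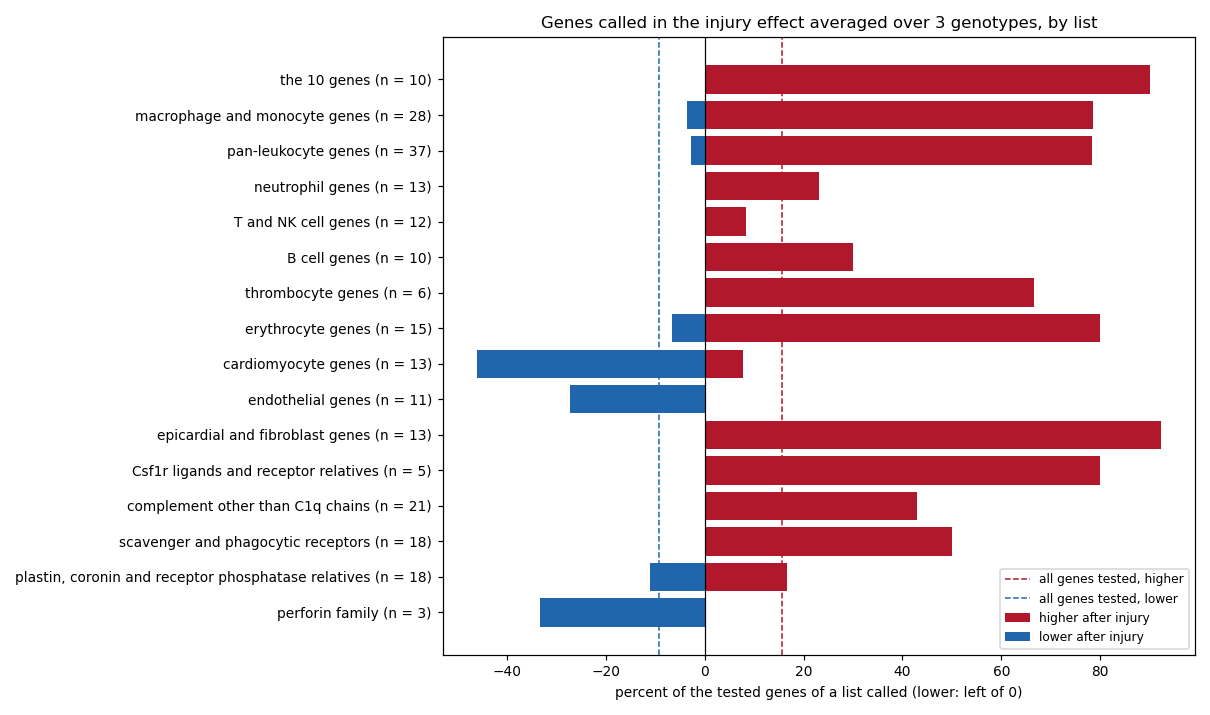
Percent of the tested genes of each list that were called higher (right of 0) or lower (left of 0) in the injury effect averaged over the 3 genotypes, with dashed lines at the percentages over all 19014 genes. The 10 genes, the further macrophage and pan-leukocyte lists, and the erythrocyte and epicardial and fibroblast lists lie far to the right of the line at 15.7%, and the cardiomyocyte and endothelial lists lie mainly to the left.

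Of 5 ligands and receptor relatives of Csf1r, 4 rose. *csf1a*, a ligand of Csf1ra, was at 0.670 to 3.78 CPM in the 6 uninjured and 6.94 to 25.2 in the 6 injured libraries, and its averaged injury effect was 3.06 (standard error 0.16, FDR = 2.9e-06, edgeR, Benjamini-Hochberg). It was also higher in MT0 than in WT0 by 1.61 (FDR = 0.0043) and than in TG0 by 1.86 (FDR = 0.0021, edgeR, Benjamini-Hochberg), at 3.78 and 3.18 CPM against at most 1.21. The second ligand gene, *csf1b*, was at most 0.203 CPM in uninjured and 1.12 in injured libraries, close to the floor of 3 counts, and *csf1rb*, the paralog of *csf1ra*, rose by 1.002.

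Complement beyond C1q and scavenger receptors beyond Marco were read in the same way. Of 21 complement genes, 9 rose (15.7% of all genes), none fell, and 12 did not pass the test, with a median over the 21 of 1.84. That median includes genes near the floor before injury. *c3a.2*, *c3a.6*, *c5*, *c8a*, and *cfb* had uninjured medians of at most 0.0609 CPM and were highest in MT7 replicate 2. Of the terminal pathway genes, *c6* lay between 194 and 553 CPM before and 913 and 1221 after injury and *c7a* was higher by 1.98, whereas *c7b*, at medians of 1.99 and 1.88 CPM, and *c5* and *c8a*, with injured medians of 0.270 and 0.223 CPM, did not pass the test. *c4*, which acts directly after C1, rose by 1.45, *c3a.1* by 2.90, and *cfp*, the properdin gene, by 1.79. *c9*, which encodes a pore-forming component made mainly in the liver, was among the 9 called. It was at most 0.0744 CPM in uninjured and WT7 libraries but 0.967 and 1.96 in TG7 and 0.331 and 8.48 in MT7, so the 2 WT7 libraries stayed at the uninjured level. *serping1*, the C1 inhibitor gene, had a similar pattern, with at most 0.176 CPM in uninjured and WT7 libraries and 3.70 in MT7 replicate 2. Of 18 scavenger and phagocytic receptor genes, 9 rose and 9 did not pass the test, those of lowest FDR being *scara3* (3.24), *colec12* (3.03), and *mrc1b* (2.06), which fibroblasts or endothelial cells can also express.

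Relatives of the leukocyte genes in the same protein families were read as a contrast. Of 18 plastin, coronin, and receptor phosphatase relatives, 3 rose (*pls3* by 0.55, *ptprk* by 1.01, and *ptprja* by 0.72) and 2 fell (*coro1cb* by 0.74 and *ptprb* by 0.53), with a median of -0.13. Both counts are near the shares over all genes, of which 15.7% were called higher and 9.18% lower. Of 3 perforin genes, *prf1.5* fell by 0.54.

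Several lists of genes of other cells changed at the same time, and their part in the levels of the 10 genes was not tested. Over all genes, 15.7% were called higher and 9.18% lower, and the neutrophil and the T and NK cell counts were not far from these shares. Of 13 neutrophil genes, 3 rose, *mpx* (1.39), *mmp9* (2.71), and *cebpa* (1.36), and the summed neutrophil level was 68.7 to 177 CPM before and 112 to 175 after injury, with no defining marker at 0 in any library. Among 12 T and NK cell genes 1 rose, *foxp3a*. Its level was 0 to 1.34 CPM before and 0.286 to 1.45 after injury, which overlap, with values close to the floor of 3 counts. The sum of the T and NK cell genes was 31.7 to 204 CPM before and 26.3 to 196 after. In the mutants this sum was dominated by *tox*, at 172 and 151 CPM in MT0 and 73.4 and 155 in MT7. Of the defining markers, *cd8a* stayed at or below 1.41 CPM, *lck* at or below 3.18, and *zap70* at or below 4.24. The marker *cd28* ranged from 0.596 (WT0 replicate 2) to 13.7 CPM (MT0 replicate 2) before injury. After injury it ranged from 1.19 (WT7 replicate 2) to 18.6 (MT7 replicate 1). Of 10 B cell genes, 3 rose, the sum was 20.7 to 73.4 CPM before and 55.2 to 70.4 after, and the defining marker *cd79a*, which made up 76.7% to 90.4% of that sum by group, was at 18.4 to 60.0 CPM before and 44.8 to 53.4 after. The other defining markers *cd79b* and *pax5* were at 0 in 1 library each and at most 1.93 and 0.531 CPM. Erythrocyte genes rose in 12 of 15 and fell in 1, from sums of 2901 to 9238 CPM to 6876 to 19511, epicardial and fibroblast genes rose in 12 of 13, from 860 to 3776 CPM to 7186 to 8560, and thrombocyte genes rose in 4 of 6. Cardiomyocyte genes fell in 6 of 13 and rose in 1, from sums of 61402 to 110690 CPM to 40799 to 80341, and endothelial genes fell in 3 of 11. With library totals without TMM factors, the median of all genes in the averaged injury effect moved to 0.23, and the same 9 of the 10 genes were called.

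**Figure D5:**
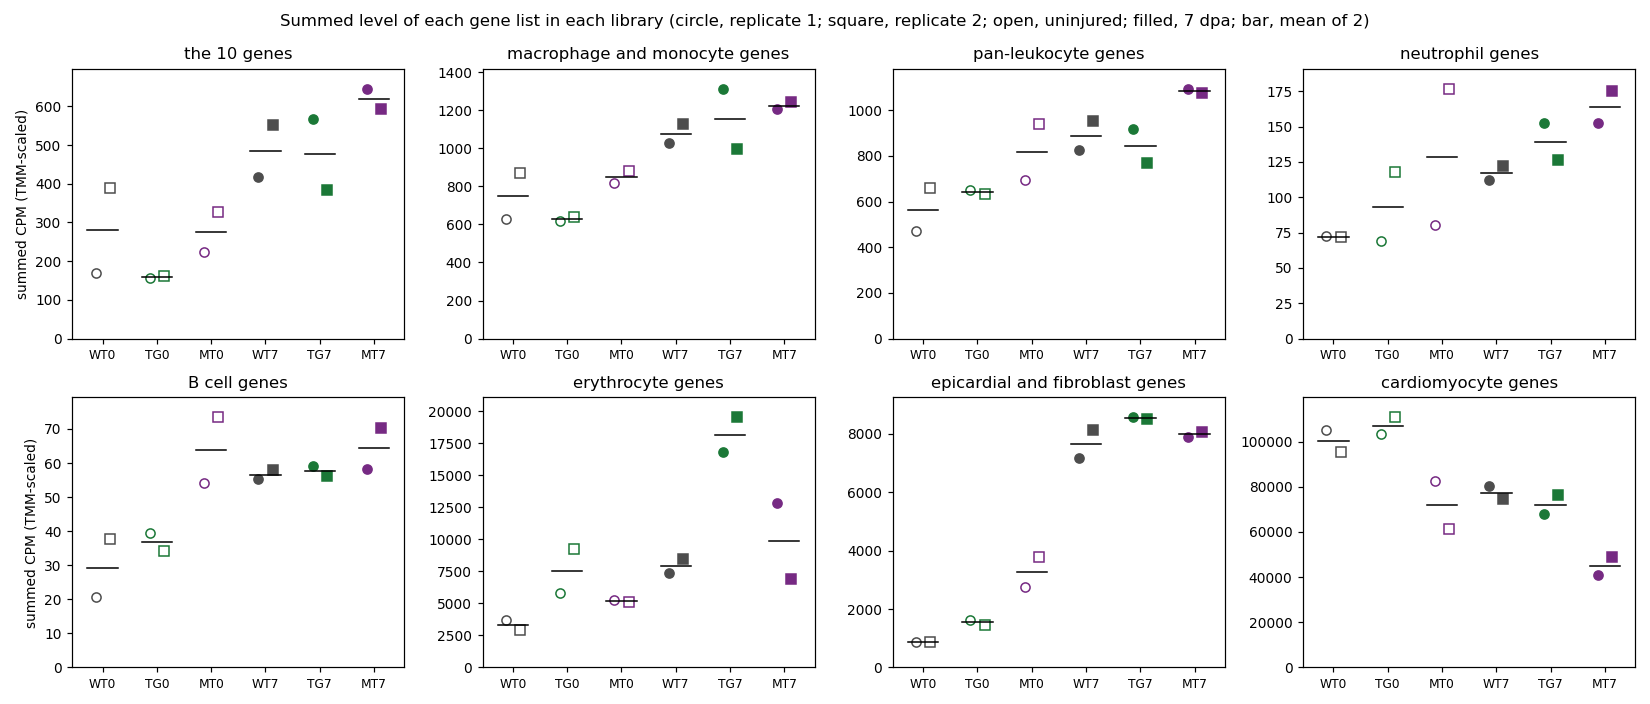
Summed level of the 10 genes and of 7 gene lists in each library, in CPM on linear axes from 0; symbols as in the plot of levels by library. The 10 genes sum to 155 to 388 CPM before and 385 to 646 after injury, overlapping only through WT0 replicate 2, while the neutrophil sum of MT0 replicate 2, at 177 CPM, lies above those of all injured libraries.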

How the data were processed

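Ventricular apices were measured by RNA-seq in 12 libraries. Per the study's methods, TruSeq libraries (RNA Prep Kit v2) were sequenced as single-end reads of 100 bases and aligned with STAR 2.5.2 to GRCz10 with annotation 91, and the authors deposited raw counts per gene from featureCounts 1.5.0-p3. The strand setting is not given in the sources used here, so overlapping and antisense genes cannot be told apart with certainty. Groups were taken from the sample labels. Replicates were set against counting noise by a chi-squared test for each gene, scaled by library totals without TMM factors. The unadjusted p was under 0.05 in 30.2% (TG7) to 55.3% (WT0) of the genes compared.

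Genes were filtered with filterByExpr (minimum count 10), and all 12 libraries entered 1 model of the 6 group means in edgeR 4.0.16 (R 4.3.3), with TMM factors, the quasi-likelihood test, and Benjamini-Hochberg adjustment, for 13 comparisons. The code was tested on simulated data. Thresholds followed the study, with 0.5 for the log2 fold change in either direction and 0.05 for the FDR. Alternatives were DESeq2 1.42.0, limma-voom (limma 3.58.1), RLE size factors, no filter, only the libraries compared, a replicate block, library sizes without erythrocyte genes, and leaving out each library, which assumes that the remaining library of its group varies like the others. Library totals without TMM factors and a block with crossed MT7 numbers were added after the data had been seen. All 10 genes are named, with the listed genes of lowest FDR or known role, and the 3 genes of highest r for each were computed. The 10 genes and the gene lists were chosen with earlier results of these data known. The marker symbols *cd4-1*, *ighm*, *hbaa2*, *hbba1*, and *hbba2* were not found by name in the count files, nor were further symbols of the lists. Found were 30 of 41 macrophage and monocyte, 38 of 46 pan-leukocyte, 13 of 22 T and NK cell, and 24 of 36 complement symbols. The counts by list cover only the symbols found and tested. Neighbouring genes come from RefSeq (GRCz12tu), where all 10 genes matched by symbol, and no sequence or coordinate is given.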

Additional observations from a re-analysis of the deposited data

How the results depend on the processing

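The injury effect averaged over the genotypes was the most stable result, with 9 of the 10 genes called under every alternative except limma-voom (8, without *mpeg1.2*), and 8 to 9 when each library was left out. Fits of only the libraries compared are not defined for it, since all 12 enter. In WT7 vs WT0, 5 genes were called by DESeq2 or with no filter and 0 with only the libraries compared, where the C1q chains had FDRs of 0.052 to 0.073 (edgeR, Benjamini-Hochberg). MT7 vs MT0 gave 2 calls with only the libraries compared and up to 7 (DESeq2), and TG7 vs TG0 gave 6 to 8 over the alternatives. MT0 vs WT0 gave 3 by DESeq2 (*mpeg1.2* and *c1qc* higher, *marco* lower) and 2 with no filter (*mpeg1.2* higher, *marco* lower), MT0 vs TG0 gave 5 with only the libraries compared and 1 by limma-voom, and TG0 vs WT0 gave 2 by DESeq2, 2 with no filter, and 0 with only the libraries compared. *mpeg1.2* was the 1 gene called in MT7 vs WT7 by DESeq2, with no filter, with only the libraries compared, by limma-voom, and with library totals without TMM factors, and 1 gene was called by DESeq2 in MT7 vs TG7 (*mpeg1.2*) and in the TG against WT interaction (*marco*). Leaving out each library gave 1 to 7 calls in WT7 vs WT0, 0 to 8 in TG7 vs TG0, 0 to 6 in MT7 vs MT0, 1 to 6 in MT0 vs WT0, 0 to 5 in MT0 vs TG0, 0 to 3 in TG0 vs WT0, 0 to 1 in MT7 vs WT7, 0 to 0 in MT7 vs TG7, and 0 to 1 in the TG against WT interaction. Calls over all genes moved in such fits as well, falling in WT7 vs WT0 without WT0 replicate 1 and in TG7 vs TG0 without TG0 replicate 1. The causes were not tested. The *marco* value in WT7 vs WT0 (-0.03) became 0.13 by limma-voom and 0.13 with library totals without TMM factors, and -0.61 to 0.97 on leaving out libraries. Leaving out libraries also moved *lcp1* from -0.0555 to 0.67 in the averaged effect, -0.29 to 0.92 in TG7 vs TG0, and -1.03 to 0.33 in MT7 vs MT0.

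Same-numbered replicates showed little shared deviation, with correlations from -0.12 to 0.12 over 15 pairs of groups. The main fit did not pair the samples by number, and whether some groups shared a batch was not tested. With the replicate block, 4 genes were called in WT7 vs WT0, 6 in TG7 vs TG0, 4 in MT7 vs MT0, and 9 in the averaged effect, and no other count changed. Crossing the numbers of MT7 gave 5 in MT7 vs MT0. Over all genes, fits of only the libraries compared called 1300 higher and 955 lower in WT7 vs WT0 (2502 and 2094 in the fit of all 12), 2005 and 1165 in TG7 vs TG0 (1273 and 512), and 179 and 158 in MT7 vs MT0 (1057 and 1231). With library totals without TMM factors, 87.4% of the calls in the averaged effect were higher, against 63.1% with them. The lowest count of the 10 genes was 24, for *lcp1* in WT0 replicate 1, and the part of depth was not tested. Each comparison is limited by having 2 libraries a group.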
